A study of Mus musculus with 3 samples.

Results

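The PLAG zinc finger family comprises 3 genes in the mouse, Plagl1 (also called Zac1), Plag1 and Plagl2. Open chromatin windows were taken as belonging to a family gene when the midpoint of the window lay inside the gene or within 10 kb of it. This rule found 4 of 13500 windows: 1 at Plagl1, 2 at Plag1 and 1 at Plagl2. The windows came from ATAC-seq, in which a transposase cuts accessible DNA, on cells of the apical part of first molars from C57BL/6 mice. There were 2 control libraries of genotype Arid1a fl/fl and 1 mutant library of genotype Gli1-CreER;Arid1a fl/fl. All mice carried the floxed Arid1a alleles, and the labels' protocols give a tamoxifen injection of 1.5 mg per 10 g body weight at postnatal day 3.5 and molars at postnatal day 7.5, with 5000 cells used in each group. Arid1a belongs to the SWI/SNF complexes, which move nucleosomes. Gli1-CreER is active in cells that express Gli1, a target gene of hedgehog signalling, and the share of cells in the digest that had lost Arid1a was not measured here. The series links Arid1a, Plagl1 and the hedgehog pathway with the exit of tooth root progenitors from the cell cycle.

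The windows analysed here form a single list over all libraries. Each spans 201 bases around a peak centre, a fixed width, so its edges do not mark where open chromatin ends. No window carries a value per library, so mutant and control were not compared, the reads behind each window are not known, and the values below come without replicate errors. The headers name a union list of peaks, and neither they nor the labels say by what rule its regions were selected. A motif site is a match in the sequence of a window and does not measure binding of Plagl1. As a look at the labelled tissue, 7 of 10 genes of dental mesenchyme and odontoblasts had a window inside or within 10 kb, among them Msx1, Barx1, Twist1, Runx2, Sp7 and Col1a1, while Prrx1 and the dentin matrix genes Dspp and Dmp1 had none. The same held for 1 of 6 dental epithelium genes (Ambn), 2 of 4 immune genes (Ptprc and Cd68) and 1 of 4 endothelial genes (Kdr). Of all protein-coding genes 59.5% had a window by this rule. The mesenchyme and immune counts lie near this background, and the epithelium and endothelial counts below it. The lists are too short to set any of them apart from it, and no test was made. The part of these other cell types in the windows described below was not tested.

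The members of the family are transcription factors with a row of C2H2 zinc fingers at the start of the protein, and they recognise GC-rich DNA with a G-rich core. Plagl1 is an imprinted gene, expressed from the paternal allele in many tissues, whose product can arrest the cell cycle. Plag1 is a growth-promoting gene known from chromosome rearrangements in salivary gland adenomas. Plagl2 is the member closest to Plag1. The motif searched in the windows was that of Plagl1, and because the zinc fingers of the family are alike, a match to it does not tell the members apart.

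The bases next to Plagl1 and Plagl2 are shown because they hold the motif matches described below. Both were read from RefSeq promoter entries of GRCm38.p6, on the plus strand and 5′ to 3′, and capitals mark bases that match the Plagl1 motif. The first runs for 250 bases up to the start of Plagl1 (chr10:13090582-13090831). Its last 94 bases lie in the open chromatin window, and its capitals, which hold a pair of overlapping matches on opposite strands, do not. The second is the part of the Plagl2 window that lies outside Plagl2, in the gap between Plagl2 and Pofut1 (chr2:153241359-153241528), and comes from the entry of Pofut1.

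Plagl1 upstream: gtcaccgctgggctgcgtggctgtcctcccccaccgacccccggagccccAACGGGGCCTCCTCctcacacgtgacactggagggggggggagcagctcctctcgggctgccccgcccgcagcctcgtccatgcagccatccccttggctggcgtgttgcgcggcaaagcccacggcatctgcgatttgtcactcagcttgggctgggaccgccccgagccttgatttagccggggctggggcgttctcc

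Plagl2 window: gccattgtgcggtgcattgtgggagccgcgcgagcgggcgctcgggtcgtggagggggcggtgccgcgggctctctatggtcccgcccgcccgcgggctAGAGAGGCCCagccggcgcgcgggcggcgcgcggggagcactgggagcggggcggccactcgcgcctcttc

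The first question was where the windows lay. Each of the 3 family genes had a window within 1 kb of a gene end, a position that 46.6% of 21887 protein-coding genes had. By the wider rule of 10 kb, 59.5% of protein-coding genes had a window and 21.2% had 2 or more, as Plag1 did. The count of 3 out of 3 is too small to set the family apart from this background, and no test was made.

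Plagl1 spans chr10:13090832-13131694, and its window lay at chr10:13090738-13090938, with 107 of its 201 bases inside the gene. The midpoint was 6 bp from the lower end of Plagl1, which is its start, since the gene is on the plus strand in the promoter table. The lower end of the noncoding transcript Hymai lies 13 bp further on, 7 bp from the midpoint, so the same window covers the lower ends of both. The rest of the gene, including its other end, had no window, and neither did the DNA around it: the next windows were 82.3 kb below and 61.3 kb above the gene.

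Plag1 spans chr4:3898769-3938430 and was the member with 2 windows. One lay at chr4:3938807-3939007, 477 bp beyond the upper end of Plag1 and with none of its bases inside the gene. Its midpoint was inside the neighbouring gene Chchd7, 67 bp from the lower end of that gene, which encodes a small mitochondrial protein. Only 409 bases separate Plag1 from Chchd7, and this window was nearer to Chchd7 than to Plag1. The other window, at chr4:3929663-3929863, lay wholly inside Plag1, 8667 bp from its upper end, and no other gene end was within 1 kb of it. The gene table used here holds no exons, so whether this window is exonic or intronic was not determined. Beyond the 10 kb limit, the next windows were 23.6 kb below Plag1 and 29.3 kb above it. The lower had a GC content of 66.7% and 11 CpG per 100 steps, and the upper 51.7% and 1.5. Both were without a motif site.

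Plagl2 spans chr2:153227769-153241358 and had its window at chr2:153241328-153241528, with 31 bases inside the gene and the midpoint 70 bp beyond its upper end. The other bases of the window lay in the gap of 173 bases between Plagl2 and Pofut1, which encodes an enzyme that adds fucose to Notch receptors. The midpoint was 104 bp from the lower end of Pofut1, which is its start in the promoter table. The next windows were 66.2 kb below and 50.2 kb above Plagl2.

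**Figure D1:**
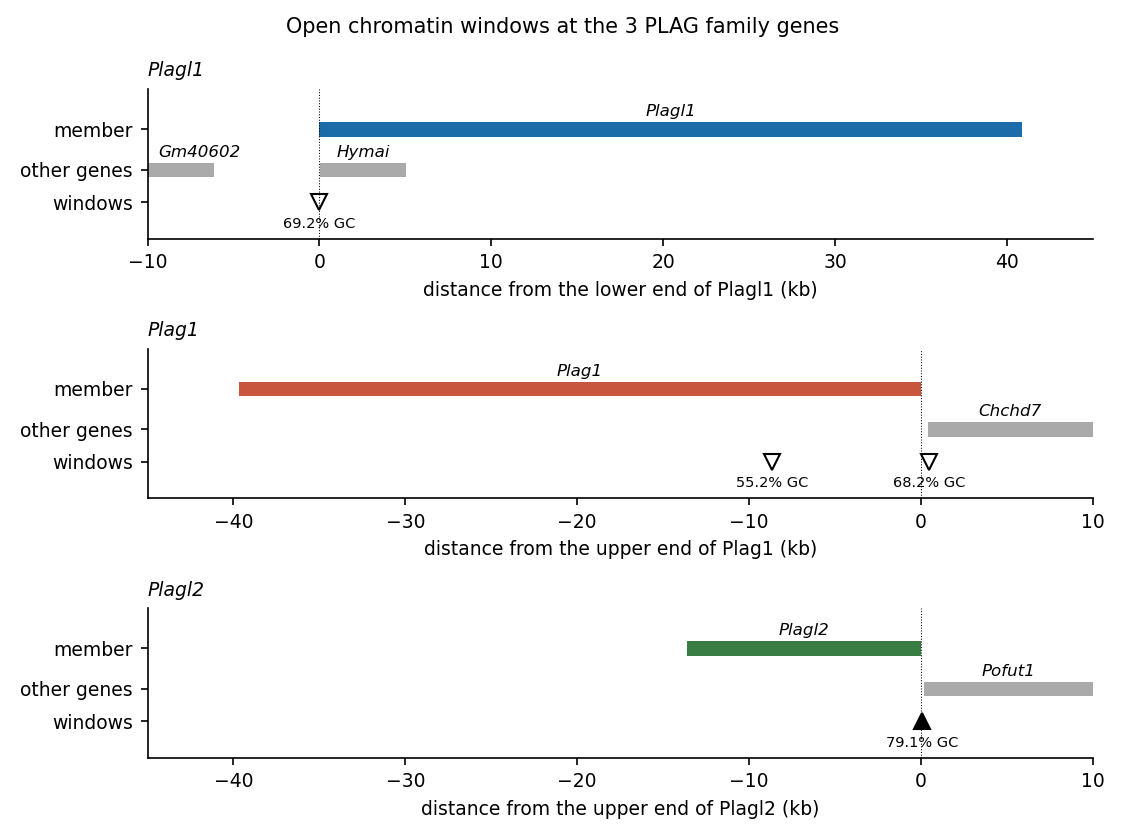
Position of the 4 open chromatin windows at the PLAG family genes, in kb from the gene end that has the nearest window, with the family gene as a coloured bar and genes within 10 kb of a window as grey bars (bars stop at the edge of each panel). Triangles are window midpoints, filled where the window held a Plagl1 motif site; each gene has a window at the end that lies beside another gene's end, and Plag1 has a second one 8667 bp inside.

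The windows at the gene ends of all 3 members were thus shared with another annotated gene: Hymai for Plagl1, Chchd7 for Plag1 and Pofut1 for Plagl2. Among the 9078 windows within 1 kb of a protein-coding gene end, 29.2% were within 1 kb of the ends of 2 or more annotated genes. Counting protein-coding partners only, as for Plag1 and Plagl2, the share was 16.0%. Because the list of windows does not say which gene an open region serves, none of these 3 windows can be ascribed to the family gene alone.

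The second question was what kind of DNA was open at these genes. GC content is the percentage of G and C among the 201 bases of a window, and CpG is given per 100 steps between neighbouring bases. In 2 windows of the list, neither of them in the family, the values were not whole counts over these lengths within 0.01. Over all windows the median GC content was 66.7% (quartiles 59.2 and 72.6) and the median CpG value was 9 (quartiles 5.5 and 12).

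The Plagl2 window was the richest of the 4, with a GC content of 79.1% and 16 CpG per 100 steps, or 32 CpG in all. It stood at the 93.7th percentile of all windows for GC content and at the 94.5th for CpG. The Plagl1 window had a GC content of 69.2% and 11 CpG per 100 steps, at the 60.9th and 66.8th percentiles. So the window at the imprinted start of Plagl1 was close to the middle of the list in composition, and the window of Plagl2 was near its top.

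The windows of Plag1 differed from each other. The one between Plag1 and Chchd7 had a GC content of 68.2% and 7.5 CpG per 100 steps, at the 56.8th and 39.0th percentiles. The one inside Plag1 had 55.2% and 2 CpG per 100 steps, which is 4 CpG in all, at the 16.0th and 8.89th percentiles. It was the only one of the 4 windows over 1 kb from any protein-coding gene end, a class whose median was 60.2% GC and 5 CpG per 100 steps over 4422 windows.

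The CpG value can be set against what the GC content alone would give with equal numbers of C and G, as a ratio that falls below 1 where CpG is depleted. This ratio was 1.02 in the Plagl2 window, 0.920 in the Plagl1 window, 0.646 in the window between Plag1 and Chchd7 and 0.262 in the window inside Plag1. CpG islands are commonly described by a ratio of at least 0.6 with a GC content of at least 50%. The windows at the ends of Plagl1, Plag1 and Plagl2 met both limits, as did 73.3% of all windows, and the window inside Plag1 did not meet the limit on the ratio. A window is shorter than a CpG island, so this describes the window and not an island call.

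**Figure D2:**
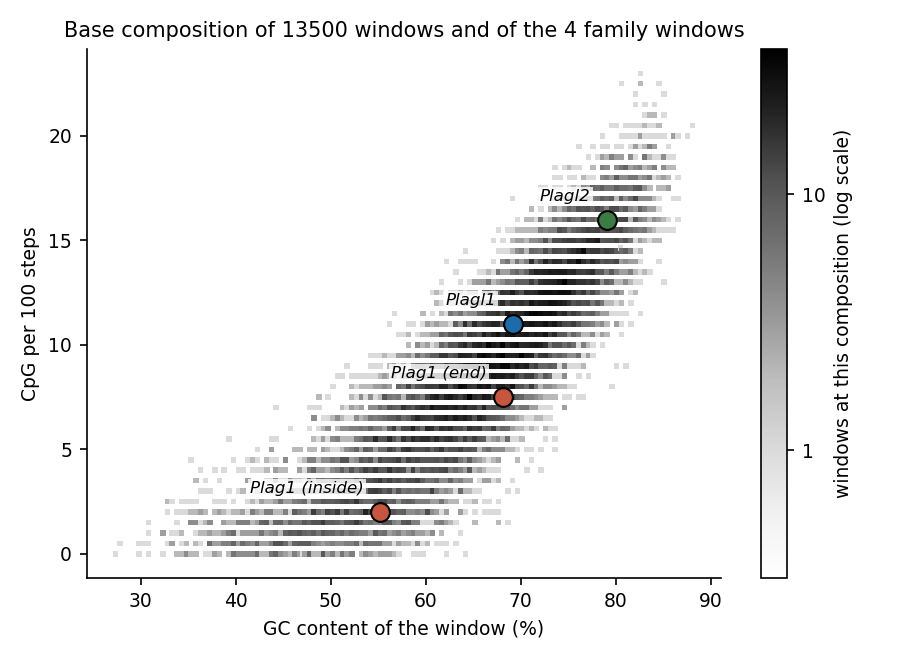
GC content (%, x axis) against CpG per 100 steps (y axis) of all 13500 windows, in grey by the number of windows at each composition on a log scale, with the 4 family windows as coloured points. The Plagl2 window (79.1% GC, 16 CpG per 100 steps) sits near the top, the Plagl1 window and the window at the end of Plag1 near the centre, and the window inside Plag1 (55.2%, 2) near the bottom.

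Windows of protein-coding gene ends with the very same GC content and CpG value were used to name genes of like composition, over this pair of measures. For Plagl1 there were 23 such windows, of which those closest to a gene end were at Map2k7, Lims1 and Dr1, and 8 of the 23 held a motif site. For the window between Plag1 and Chchd7 there were 15, led by Mblac2, Gpsm2 and Ndor1, and 5 held a site. For Plagl2 there were also 15, led by Fbxo10, Ankrd9 and Per3, of which 5 held a site. Over all windows within 1 kb of a protein-coding gene end, 32.8% held a site. At that share, groups of this size nearly always hold windows both with and without a site, so these counts do not set the family genes apart.

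The third question was whether the family genes hold matches to the motif of their own member Plagl1. Of the 4 windows 1 held a site, that of Plagl2, against 32.9% of all windows (4444 of 13500, exact Clopper-Pearson 95% interval 32.1 to 33.7). The windows of Plagl1 and of Plag1 held 0 sites. Of the protein-coding genes with a window inside or within 10 kb, 42.1% had a site in one of them, and 1 of the 3 family genes did.

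The site in the Plagl2 window lay at chr2:153241458-153241467 on the plus strand. It began 100 bp beyond the end of Plagl2 and ended 65 bp before Pofut1. Its log-odds score, which grows with the likeness to the motif, was 6.73, where the deposited sites ran from 5.51 to 7.74 with a median of 5.94. Of all 5753 sites 91.1% scored lower, so the match at Plagl2 was among the better ones of the list. Windows with at least as many CpG as that of Plagl2 numbered 834, and 30.0% of them held a site.

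The site of Plagl2 is shown with the highest-scoring and the most frequent site of the list and with the matches upstream of Plagl1. Each is written 5′ to 3′ on the strand of the motif, and capitals mark positions 4 to 10, the G-rich core and the bases after it.

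Plagl2 window: agaGAGGCCC
Highest score: tatGAGGCCC
Most frequent: cccGGGGCCC
Plagl1 upstream, plus strand: aacGGGGCCT
Plagl1 upstream, minus strand: gagGAGGCCC

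The site of Plagl2 has the same capitals as the highest-scoring site and differs from it at 3 positions outside them, T1A, A2G and T3A, where positions count from 1 at the 5′ end, the base of the highest-scoring site comes first and that of Plagl2 last. From the most frequent site, which had a score of 5.52 and occurred 117 times, it differs by C1A, C2G, C3A and G5A. At positions 4 and 6 to 10 the Plagl2 site carries the base with the highest score contribution among those seen in the list. All sites of the list share G at position 6. Only G and C were seen at position 4, and only G and T at position 7. The Plagl2 site lost most at position 2, by 0.54 of score, and less at positions 3 (0.25), 1 (0.22) and 5 (0.072).

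The 10 bases of the Plagl2 site occurred at 22 sites of the list, 16 of them in windows within 1 kb of a protein-coding gene end, a position that 67.2% of all windows had. Their nearest genes included Arc, an immediate early gene of neurons, the G1 kinase gene Cdk4 and Fam20c, a kinase of the secretory pathway that phosphorylates dentin and bone matrix proteins. These 3 genes were picked after the list was seen. The Plagl2 window had the highest CpG value of the 22, whose range was 1.5 to 16 per 100 steps.

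**Figure D3:**
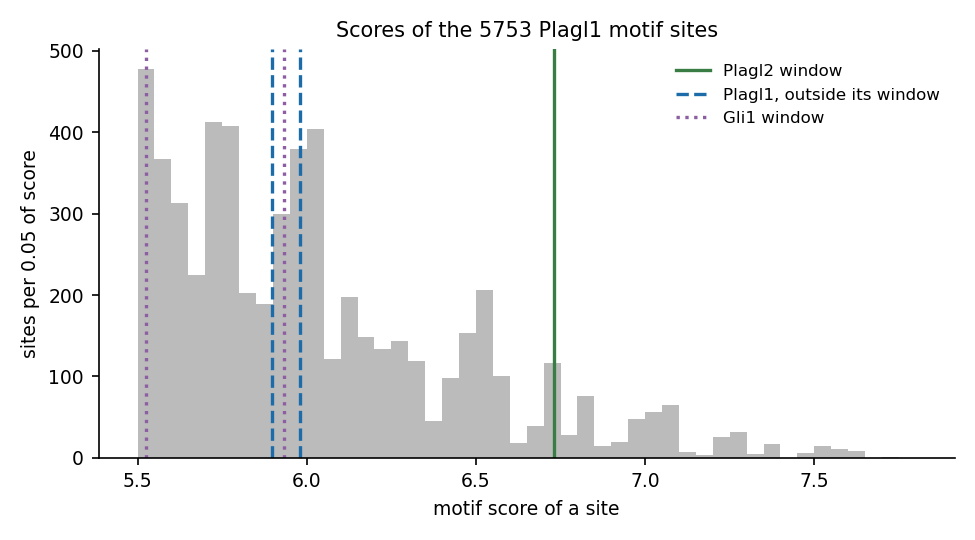
Number of the 5753 Plagl1 motif sites per 0.05 of log-odds score (grey bars), with vertical lines at the site of the Plagl2 window (6.73), at the matches upstream of Plagl1 that lie outside its window (5.98 and 5.90) and at the sites in the window of Gli1 (5.93 and 5.52). The Plagl2 site lies in the upper tail, where 91.1% of sites score lower, and the others lie near or below the median of 5.94.

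The absence of a site at Plagl1 depended on the width of the window. In the RefSeq promoter entry of Plagl1, which runs from 250 bases before to 50 after the gene start, the motif weights recovered from the deposited scores gave a pair of matches above the lowest deposited score. They lay at chr10:13090632-13090641 on the plus strand, with a score of 5.98, and at chr10:13090636-13090645 on the minus strand, with a score of 5.90. They overlap, so they are not independent, and they ended 191 and 187 bp before the start of Plagl1. Between them and the window of Plagl1 lay 96 and 92 bases, and the deposited search, made in windows, did not reach them. Because the width of a window is fixed, whether the DNA at these matches was open is not known.

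These matches score near the middle of the deposited sites: 53.6% of sites scored lower than the first and 44.5% lower than the second. The 10 bases of the first occurred at 8 deposited sites elsewhere, and those of the second at 33. Within the 144 bases of the Plagl1 window for which sequence was at hand, the best match scored 3.39, which is 2.12 below the lowest deposited score. Of 32851 promoter entries of the same length, 39.3% held a match at or above the lowest deposited score on either strand. Of the 5715 entries that overlapped a window without a site, as that of Plagl1 does, 26.9% held one. The best match of 22.6% of all entries scored at least as high as that of Plagl1. The matches upstream of Plagl1 are given as a description.

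The promoter entry of Pofut1, which contains the whole Plagl2 window, held the site of the Plagl2 window and 1 further match of score 5.83 at chr2:153241567-153241576. That match lies inside Pofut1, with 38 bases between it and the edge of the window. No promoter entry was at hand for Plag1 or Chchd7, so the sequence of the windows at Plag1 could not be read. Those windows were described by the deposited values alone, and whether matches lie just outside them is not known.

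**Figure D4:**
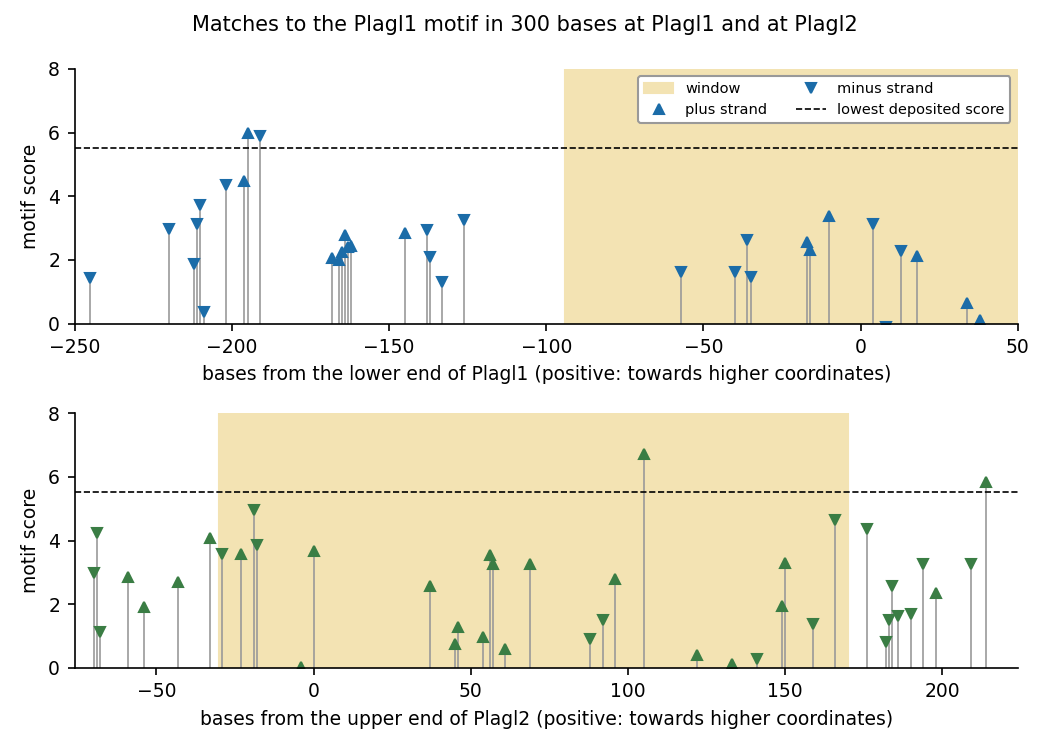
Motif score (y axis) of positions that could be scored on the plus and minus strands of 300 bases at Plagl1 (top) and Plagl2 (bottom), against bases from the gene end. Negative scores are not drawn. Shading marks the open chromatin window, whose width is fixed, and the dashed line is the lowest deposited score of 5.51. At Plagl1 both matches above the line lie outside the window, and at Plagl2 the match of score 6.73 lies inside it and that of 5.83 outside.

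The core letters alone were counted as well. GGGGC, searched on both strands, occurred 6 times in the promoter entry of Plagl1 and 4 times in that of Pofut1, where 60.8% of all promoter entries held it and the median was 1. GAGGC occurred 2 times at Plagl1 and 3 times at Pofut1, with 63.3% of entries holding it and a median of 1. In the sequenced 144 bases of the Plagl1 window GGGGC occurred 3 times and GAGGC 0 times, and in the Plagl2 window they occurred 3 and 2 times. An occurrence of either can be part of the longer matches above.

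Genes that family members are reported to regulate or to work with were described as a list of 22, taken from general knowledge. Of these, 18 had a window inside or within 10 kb (81.8%, beside 59.5% of protein-coding genes), with a median of 1 window, as over all protein-coding genes. The count fell with the distance: 15 of 22 (68.2%, beside 51.6%) had one at most 3 kb from an end, and 11 of 22 (50%, beside 46.6%) at most 1 kb. A motif site lay in the windows of 9 of the 22 genes, or 9 of the 18 with a window, beside 42.1% of protein-coding genes with a window. Members without a window were Igf2 and H19, a growth factor and a noncoding RNA of the same imprinted cluster, Dlk1, a further imprinted gene, and Adcyap1r1, the receptor of the neuropeptide PACAP.

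Among the cell cycle genes of the list, Cdkn1c, an imprinted Cdk inhibitor, had 1 window, 85 bp from a gene end, with a GC content of 72.1% and 14 CpG per 100 steps. It held 2 sites, acaGAGGCCC with a score of 6.24 and gagGAGGCCC with a score of 5.90, and the latter has the same 10 bases as the minus-strand match upstream of Plagl1. Cdkn1a, the Cdk inhibitor induced by p53, and Trp53, which encodes p53, had 2 windows each, with 0 sites. Of the coactivators, Ep300 had 1 window with a site of score 6.04, Crebbp 2 windows with 2 sites (best score 6.12), and Kat2b 1 window with 0 sites.

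Among the targets linked to signalling, Fzd2, a Wnt receptor, had 1 window 48 bp from a gene end with a site of score 6.18. Its relative Fzd9 had 1 window 28 bp from an end, with 17 CpG per 100 steps and 0 sites. Socs3, a feedback inhibitor of cytokine signalling, had 2 windows and a site of score 5.79. Crabp2, a retinoic acid binding protein, had 2 windows and a site of score 6.40. Tcf4, a basic helix-loop-helix factor, had 3 windows with 2 sites. Elsewhere in the list of 22, whether linked to signalling or not, Pparg, Wnt6, Bnip3 and Sftpc had 1 window each, all without a site.

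The genes of the study design gave a reference. Gli1 had 1 window with 2 sites (5.93 and 5.52), both below the score of the Plagl2 site, and Arid1a had 4 windows inside or within 10 kb with 0 sites, as at Plagl1 and Plag1.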

How the data were processed

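ATAC-seq libraries came from 2 control samples and 1 mutant sample. The submitters' processing notes name Bowtie2 2.3.5, MACS2 2.1.1 and the build mm10, among other tools, without their settings. Per the file headers, the authors ran HOMER's peak annotation on merged peaks, searching 1 motif within 100 bases to each side of each peak centre. The deposited GC and CpG values are a fraction of bases and of steps, and were turned into percent and per 100 steps. The deposited score of a site is HOMER's log-odds score, whose log base is not stated. Depth is unknown and intervals cover counting error only.

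Genes and promoter sequences came from RefSeq tables of GRCm38.p6, the assembly behind mm10. The gene table matched all 3 family genes, and the promoter table matched 1 of them, Plagl1. Positions count from 1. In 1543 windows that lie wholly in promoter entries, GC and CpG counts recomputed from sequence equalled the deposited ones in 1543 and the sites found equalled the deposited ones in 1543. Motif weights were recovered from all 5753 sites by least squares, with a largest error of 6.1e-07 in score. Bases never seen at a position were not scored. Percentiles are mid-ranks.

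No test was run. The members, the lists and the descriptions were chosen with earlier results of these data known. The genes named are the family, genes within 10 kb of its windows, Arid1a and Gli1, the list of 22 (some of which are not reported here by name), markers, and for each member the 3 genes nearest in GC and CpG. Alternatives were the distance, the way of counting windows, the score limit and the reference set. The search of promoter entries and the letters of the core were added after the data were seen. Assignment and scoring were tested on simulated data. Computations ran in Python 3.11.15 with pandas 2.3.3, numpy 2.4.6 and scipy 1.17.1, and figures were drawn with matplotlib 3.10.9.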

Additional observations from a re-analysis of the deposited data

How the results depend on the processing

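No paired analysis was possible because the list of windows gives no separate values for the libraries, and leaving out a replicate was not possible either. The single window of Plagl1 was the same under each alternative tried for it. The alternatives for sites kept those at or above the median score, at or above the upper quartile score, or wholly inside the window. They left 0 sites at Plagl1, 0 at Plag1 and 1 at Plagl2. Such limits only keep or remove sites, so the 0 at Plagl1 and Plag1 was fixed in advance. The Plagl2 site scored 6.73, above the upper quartile of 6.25. No alternative widened the window, on which the absence at Plagl1 depended. Counting only midpoints inside the gene left 1 window at Plag1 and 0 at Plagl2, whose window lies just outside the gene. Assigning each window to its nearest protein-coding gene end left 1 at Plag1, since the other is nearer to Chchd7, and a limit of 50 kb raised Plag1 to 4.

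Ranked only among windows within 1 kb of a protein-coding gene end, which are richer in GC, the percentiles for GC content and CpG were 54.0 and 60.2 for Plagl1, 6.91 and 1.39 for the window inside Plag1, 49.3 and 27.1 for that between Plag1 and Chchd7, and 92.8 and 93.6 for Plagl2. The share of protein-coding genes with a window was 46.6% within 1 kb of an end and 51.6% within 3 kb, and was 36.9% over all annotated genes within 10 kb. With sites at or above the median score alone, 18.1% of windows held a site. Of the list of 22 targets and partners, 11 (50%) kept theirs at a limit of 1 kb from an end and 15 at 3 kb.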
